A study of Danio rerio with 49 samples.

Results

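The genes described here are 10 zebrafish transcription factor genes of the early mesoderm and endoderm: tbxta, tbx16, tbx6, noto, msgn1, mixl1, sox32, sox17, gata5 and gata6. They were taken by name, ignoring case, from the count tables of the series, and each name matched 1 gene identifier, so that all 10 were found among the 32520 genes with values. The tables write SOX17, GATA5 and GATA6 in capitals. A gene listed as TBXT (ENSDARG00000039806) is a separate identifier from tbxta and was not counted as a member.

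In the zebrafish blastula, Nodal signals at the margin next to the yolk specify cells that can form mesoderm or endoderm, and this mesendoderm moves inside the embryo during gastrulation. The T-box factors tbxta, tbx16 and tbx6, together with msgn1 and noto, mark the mesoderm of the margin, the notochord and the tailbud. The homeodomain factor mixl1 and the zinc finger factor gata5 act with Nodal upstream of sox32, which endoderm formation requires and which precedes sox17 in the same cells. gata5 and gata6 are used again later in the heart and gut.

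MZrlig1 embryos are maternal-zygotic mutants of rlig1, an RNA ligase gene, so that both the egg's supply and the embryo's own copies are mutant. They were compared with wildtype (WT) animals. Whole embryos came from natural spawning, were raised in the dark and were staged by their morphology. They were collected at the 4-cell stage (4 MZrlig1 and 4 WT libraries), at sphere (2 and 2), and at shield, bud, 1 day post fertilization (dpf) and 5 dpf (3 and 3 each). Each poly(A)-enriched library came from a pool of 10 embryos at the 3 earlier stages and of 8 at the 3 later ones. A further 13 libraries held pools of 8 heads of 5 dpf larvae raised in a light/dark cycle and classed by their response to visual motion as good or bad, with 2 good and 4 bad MZrlig1 libraries and 4 good and 3 bad WT libraries. Sphere is a late blastula stage, at shield gastrulation has begun and the organizer is visible, and at bud gastrulation has ended.

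The 36 whole-embryo libraries held 12313473 to 18355308 counts. rlig1 itself had 2 counts over the 18 MZrlig1 libraries, both in 1 library, against 19 to 1084 counts in each WT library. Replicate a of MZrlig1 at 1 dpf stood apart, with 7815 genes detected where the other libraries of that stage had 22619 to 22841. In it ribosomal protein genes took 46.5% of its counts, against 7.40% to 10.1%. Its Spearman correlation with its replicates was 0.616 and 0.622, against 0.932 to 0.988 for all other replicate pairs. Results at 1 dpf are therefore given with and without it. Replicate d of MZrlig1 at the 4-cell stage and replicate a of MZrlig1 at shield also stood apart in the genes described here, as set out below. Levels are CPM, the counts scaled to a common library total, and a gene was called when the adjusted p of the edgeR quasi-likelihood test over all tested genes was under 0.05. The embryos were profiled whole and the heads as bulk tissue, so fewer cells of a type and less RNA per cell cannot be told apart.

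All 10 factors had their highest mean at shield or bud, and they fell into an early and a late set by the stage of their highest mean. The 6 genes tbxta, tbx16, mixl1, sox32, gata5 and gata6 had their highest group mean at shield in both genotypes. tbx6, msgn1 and sox17 had theirs at bud in both genotypes. For noto the highest mean was at shield in MZrlig1 embryos and at bud in WT embryos, but the MZrlig1 libraries of both stages overlapped. gata5 had nearly the same level at shield and at bud, and in MZrlig1 embryos its libraries of both stages overlapped.

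**Figure D1:**
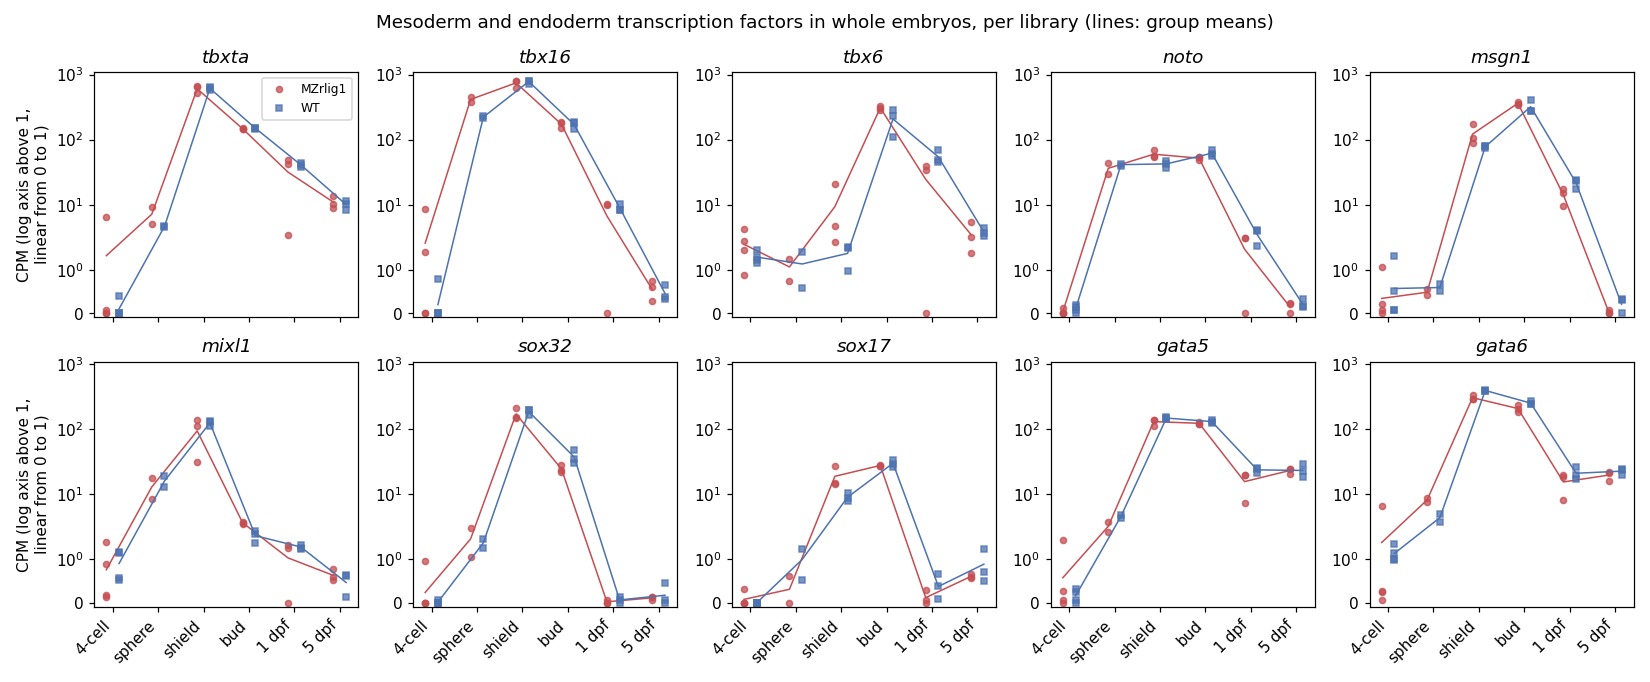
Level of each of the 10 factors in every whole-embryo library over the 6 stages, in CPM on an axis that is logarithmic above 1 and linear below, with MZrlig1 as red circles left of WT as blue squares and lines through the group means. The levels are highest at shield or bud, and the MZrlig1 library far below the others at 1 dpf is replicate a.

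Compared per length, as the authors' FPKM, tbxta was the most abundant factor at shield, with 363 ± 45 FPKM in MZrlig1 and 369 ± 18 FPKM in WT embryos (SD, n = 3 each). gata6 followed with 183 ± 15 FPKM in MZrlig1 and 236 ± 7.5 FPKM in WT embryos, and tbx16 with 160 ± 23 and 168 ± 10 FPKM in MZrlig1 and WT embryos. The lowest at that stage were sox17, with 7.42 ± 2.9 and 3.54 ± 0.49 FPKM in MZrlig1 and WT embryos, and tbx6, with 3.37 ± 3.6 and 0.645 ± 0.26 FPKM. The order was different at the other 2 stages. At sphere noto and tbx16 made up most of the FPKM summed over the 10 factors, 32.5% and 56.2% in MZrlig1 embryos and 47.8% and 38.8% in WT embryos. At bud msgn1 led, with 215 ± 12 FPKM in MZrlig1 and 190 ± 43 FPKM in WT embryos, followed by gata6 with 124 ± 14 and 151 ± 9.2 FPKM.

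At the 4-cell stage, before the embryo's own genome is active, most of the factors were at or near 0. tbx6 (ENSDARG00000011785), a T-box factor of the presomitic mesoderm, was the only one with more than 10 counts in all 8 libraries, at 15, 61, 32 and 43 counts in MZrlig1 replicates b, c, d and f and 22, 32, 18 and 24 counts in WT replicates a, b, c and f. Its levels of 0.87 to 4.16 CPM in MZrlig1 and 1.29 to 2.00 CPM in WT embryos overlapped. gata6 (ENSDARG00000103589), a zinc finger factor of endoderm and heart, had 1, 4, 105 and 4 counts in MZrlig1 replicates b, c, d and f, against 27, 16, 14 and 19 counts in WT replicates a, b, c and f. The 4 WT libraries lie between 3 of the MZrlig1 libraries and the remaining one. With all libraries the log2 fold change of gata6 was 0.53 ± 1.02 (SE; adjusted p = 0.816). Without MZrlig1 replicate d it was −2.63 ± 0.60 with an adjusted p of 0.0555, and over the 13 alternatives with an adjusted p it ranged from 0.0555 to 0.973.

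Replicate d of MZrlig1 held transcripts of all 10 factors at the 4-cell stage. It had 102 counts of tbxta, against 0, 0 and 1 in the other MZrlig1 libraries, and 132 counts of tbx16, against 0, 0 and 29. It alone of the MZrlig1 libraries had counts of noto (2), sox32 (15) and sox17 (5). For 9 of the 10 factors its level was 0.214% to 2.18% of the MZrlig1 mean at shield. For tbx6 it was 21.9%, which was not raised, against 9.34%, 44.7% and 29.5% in MZrlig1 replicates b, c and f. Keratin and other markers of the enveloping layer, the outer epithelium of the embryo, were raised in the same library, apart from tp63. The 10 markers, all present, summed to 127 CPM, against 11.2 to 13.0 CPM in the other MZrlig1 libraries. Of these markers 9 stood at 0.655% to 2.25% of their shield mean. tp63 was lowest in replicate d, at 12.5% of its shield mean, against 15.1%, 24.1% and 27.9% in MZrlig1 replicates b, c and f. Of 8 genes that had no count in any WT library of this stage but at least 100 CPM at shield in both genotypes, all 8 were present, with 297 counts in total, against 1 to 16 counts in the other MZrlig1 libraries. WT replicate f also stood apart, with 6 counts of tbxta and 12 of tbx16 where the other WT libraries had 0, and with enveloping layer markers that summed to 59.6 CPM, against 5.93 to 13.9 CPM. These were below the values of MZrlig1 replicate d, but WT replicate f had more msgn1, 25 counts against 1, 8 and 1 in the other WT libraries and 17 in MZrlig1 replicate d. The 8 yolk syncytial layer markers, of the layer under the blastoderm, summed to 6.26 CPM in MZrlig1 replicate d and 1.85 to 2.93 CPM in the other MZrlig1 libraries, and to 12.5 CPM in WT replicate f and 1.31 to 4.27 CPM in the other WT libraries. The source of these transcripts was not tested.

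**Figure D2:**
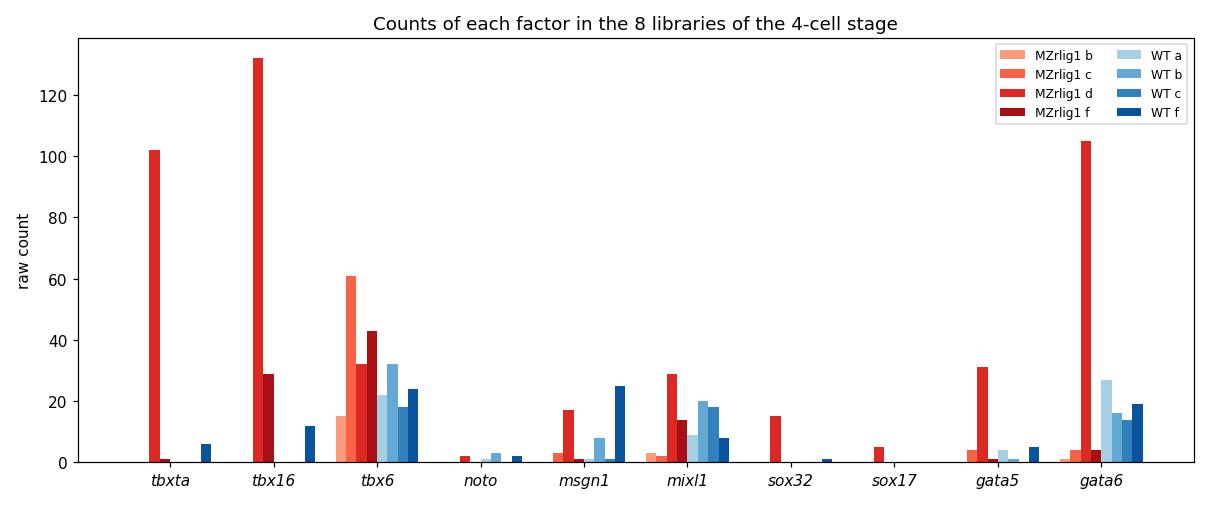
Raw count of each factor in the 8 libraries of the 4-cell stage, 1 bar per library, MZrlig1 in reds left of WT in blues. MZrlig1 replicate d has 102 counts of tbxta, 132 of tbx16 and 105 of gata6, far above the other libraries, while tbx6 is present in all.

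None of the 3 factors that passed the filter on low counts at the 4-cell stage was called between MZrlig1 and WT embryos by edgeR or at an unadjusted p under 0.05, nor by DESeq2 for tbx6 and mixl1 (it gave no adjusted p for gata6), where 3.16% of all tested genes were called by edgeR. From the 4-cell stage to sphere, the WT fit called 7 of 9 tested factors higher at sphere, where 29.2% of all tested genes were called higher. In MZrlig1 embryos 3 of 8 were called higher with all libraries (24.3% of all genes), and 7 of 8 without 4-cell replicate d (25.5%). The 7 of the WT fit were tbxta, tbx16, noto, mixl1, sox32, gata5 and gata6. The WT call of tbxta was lost by DESeq2 (adjusted p = 0.0654). That of gata6 was lost in the fit of 35 libraries, all but MZrlig1 1 dpf replicate a (adjusted p = 0.118). With 1 sphere library left, the WT call of gata6 was lost without replicate d (log2 fold change 1.16). The MZrlig1 call of tbx16 was likewise lost without sphere replicate e or f (7.03 and 7.25). The exceptions among those tested in WT were tbx6 and msgn1, which stayed at 0.572 and 1.88 CPM and at 0.509 and 0.671 CPM in the WT sphere libraries.

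At sphere, tbx16 and gata6 were higher in MZrlig1 than in WT embryos. tbx16 (ENSDARG00000007329, the spadetail gene, needed for trunk mesoderm) had 450 and 380 CPM in MZrlig1 replicates e and f, against 228 and 215 CPM in WT replicates d and f. Both MZrlig1 libraries lay far above both WT libraries, and the log2 fold change was 1.09 ± 0.08 (adjusted p = 2.8e-06). gata6 had 7.63 and 8.78 CPM in MZrlig1 embryos, against 5.02 and 3.76 CPM in WT embryos, with a log2 fold change of 1.08 ± 0.26 (adjusted p = 0.00706). These were 2 of 8 tested factors, both higher, in a comparison where 36% of all tested genes were called and 18.8% were called higher.

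Both calls rested on the spread among the 4 sphere libraries. When all 36 whole-embryo libraries shared 1 estimate of the spread, tbx16 kept a log2 fold change of 1.1 but had an adjusted p of 0.957, and over the 9 alternatives its adjusted p ranged from 2.07e-49 to 0.957. gata6 was also not called in the fits of all libraries or without WT replicate f, where its log2 fold change was 0.88, and its adjusted p ranged from 0.000195 to 0.886. The MZrlig1 sphere libraries stood at a later developmental position, 0.517 and 0.528 between the WT means of the 4-cell stage (0) and shield (1), than the WT libraries, at 0.444 and 0.430. The 13 ectoderm and neural markers summed to 476 and 597 CPM in them, against 687 and 700 CPM in WT embryos, with 11 or 12 markers present in each library and 1 PAX6 copy (ENSDARG00000103379) at 0 in all 4. The enveloping layer markers, all 10 present, summed to 1203 and 976 CPM in MZrlig1 and 919 and 868 CPM in WT embryos, and the 10 maternal and germ plasm markers, all present, to 3535 and 3375 CPM in MZrlig1 and 3966 and 3979 CPM in WT embryos. The yolk syncytial layer markers overlapped, at 165 and 120 CPM in MZrlig1 and 147 and 140 CPM in WT embryos. At the 4-cell stage the ectoderm and neural markers already summed to a mean of 362 CPM in MZrlig1 and 431 CPM in WT embryos. There the maternal and germ plasm markers summed to a mean of 7644 CPM in MZrlig1 and 8864 CPM in WT embryos. The libraries of the genotypes overlapped in both 4-cell sums. Marker sums are CPM, without the TMM scaling between libraries that the fits use. The part of any of these differences in the results for tbx16 and gata6 was not tested.

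The other factors overlapped or were not called at sphere. tbx6 (log2 fold change 0.04, adjusted p = 0.971) and sox32 (0.38, adjusted p = 0.607) overlapped between the genotypes and were not called. tbxta (ENSDARG00000101576, the no tail gene, needed for notochord and tail) had 9.30 and 4.97 CPM in MZrlig1 embryos, against 4.77 and 4.49 CPM in WT embryos, with a log2 fold change of 0.80 ± 0.31 (adjusted p = 0.0617). It was called without MZrlig1 replicate f and without the filter on low counts, and its adjusted p ranged from 0.000189 to 1 over 9 alternatives. noto (ENSDARG00000021201, the floating head gene of the notochord) had 43.0 and 29.4 CPM in MZrlig1 embryos and 42.5 and 40.0 CPM in WT embryos. mixl1 (ENSDARG00000069252) had 17.7 and 8.38 CPM in MZrlig1 embryos and 19.3 and 12.9 CPM in WT embryos. The MZrlig1 libraries enclosed or overlapped the WT values for noto and mixl1. For mixl1 the log2 fold change was −0.13 (adjusted p = 0.808). It ranged from −0.75 to 0.31 as each library was left out, which leaves 1 library in a group. gata5 (ENSDARG00000017821) had 3.82 and 2.66 CPM in MZrlig1 embryos, below the 4.32 and 4.90 CPM of the WT embryos, and was not called (log2 fold change −0.33 ± 0.32, adjusted p = 0.451). The share of all genes without overlap at sphere is not given here.

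From sphere to shield nearly all factors rose in both genotypes: 10 of 10 were called higher at shield in MZrlig1 embryos, where 31.8% of all tested genes were, and 9 of 10 in WT embryos, where 39.1% were. The largest mean levels were reached by tbx16 and tbxta. tbx16 had 622, 808 and 803 CPM in MZrlig1 replicates a, b and c at shield, and 727, 809 and 810 CPM in WT replicates a, b and c. tbxta had 519, 659 and 634 CPM in MZrlig1 embryos and 617, 642 and 583 CPM in WT embryos. The genotypes overlapped for both genes at shield. The log2 fold change of shield over sphere was 6.89 ± 0.33 for tbxta in MZrlig1 embryos (adjusted p = 9.66e-06) and 7.56 ± 0.13 in WT embryos (adjusted p = 1.23e-17). The WT call of noto over this step was lost in the fit of 35 libraries (adjusted p = 0.0895). tbx6 was the factor not called in WT embryos, with a log2 fold change of 1.06 ± 0.53 (adjusted p = 0.0751, and 0.0195 to 0.579 over 9 alternatives). In MZrlig1 embryos the call of tbx6 was lost without sphere replicate e or f and without the filter on low counts (adjusted p up to 0.115), those of noto and mixl1 without sphere replicate f (0.0724 and 0.0508), that of mixl1 also without the filter (0.0567), and that of tbx16 in the fit of 35 libraries (0.134).

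The size of this rise differed between the genotypes for tbx16 and gata6. Over this step tbx16 rose by 1.33 ± 0.17 on the log2 scale in MZrlig1 embryos, against 2.34 ± 0.09 in WT embryos, and the difference of the steps was −1.11 ± 0.19 (interaction, adjusted p = 0.0133). gata6 rose by 5.71 ± 0.23 in MZrlig1 embryos, against 7.01 ± 0.14 in WT embryos, a difference of −1.40 ± 0.23 (adjusted p = 0.0120). These 2 of 10 factors stood against 2.42% of all genes called in this interaction by edgeR, and 1.38% called lower. An unadjusted p under 0.05 was found for 4 factors (tbxta, tbx16, sox17 and gata6), without the matching share of all genes. DESeq2 called tbx16, sox17 and gata6, but it also called more of all genes than edgeR in this interaction. Its count over all genes is given with the dependence on processing, without a share. sox17 rose more in MZrlig1 (6.39) than in WT embryos (3.68), from low sphere means of 0.312 CPM in MZrlig1 and 0.999 CPM in WT embryos. The differences of the steps for tbx16 and gata6 remained called by edgeR without MZrlig1 shield replicate a, at −0.95 ± 0.17 (adjusted p = 0.00744) and −1.43 ± 0.22 (adjusted p = 0.00369). The call of tbx16 was lost when MZrlig1 sphere replicate e or f, WT sphere replicate d or f, or WT shield replicate a or b was left out, and its adjusted p over 13 alternatives ranged from 9.62e-05 to 0.110. That of gata6 was lost without MZrlig1 sphere replicate f or WT sphere replicate f, with a range of 0.000111 to 0.0961. These steps share the sphere libraries with the genotype comparison at sphere.

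**Figure D3:**
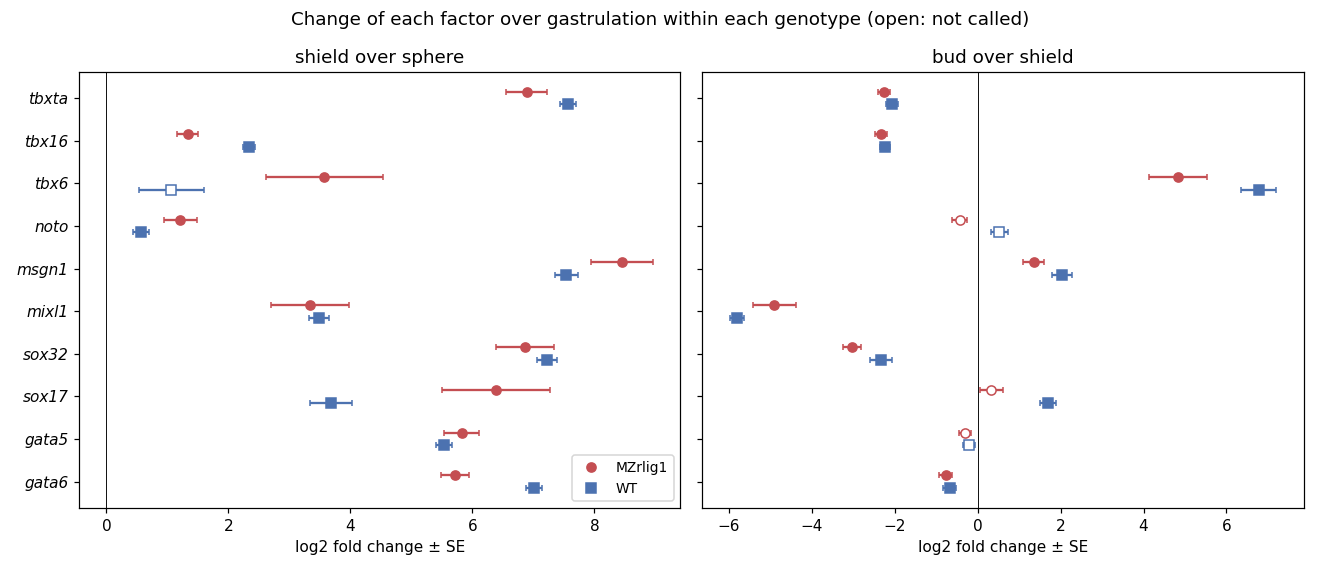
Log2 fold change of each factor from sphere to shield and from shield to bud within each genotype, with SE as bars, MZrlig1 as red circles above WT as blue squares, and open symbols where the step was not called. The sphere-to-shield rise of tbx16 and gata6 is smaller in MZrlig1 than in WT embryos, and mixl1 has the largest fall to bud.

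At shield no factor was called between the genotypes (0 of 10 by edgeR, against 3.84% of all tested genes). 5 factors, tbx6, noto, msgn1, sox17 and gata6, had an unadjusted p under 0.05, and DESeq2 called tbx6 and sox17. The share of all genes at that unadjusted p is not given here, so the 5 cannot be set against it. DESeq2 also called more of all genes than edgeR at shield, and that count is given with the dependence on processing, without a share. gata6 had 335, 297 and 289 CPM in MZrlig1 replicates a, b and c, against 385, 410 and 394 CPM in WT replicates a, b and c. All MZrlig1 libraries lay below all WT libraries, with a log2 fold change of −0.33 ± 0.13 (adjusted p = 0.181). How many of all genes did not overlap at shield is not given here, so no such separation can be set against that share. Its paralog gata5 had 115, 139 and 141 CPM in MZrlig1 embryos, against 142, 157 and 149 CPM in WT embryos, which do not overlap either (−0.15 ± 0.13, adjusted p = 0.589). noto had 56.1, 69.3 and 53.6 CPM in MZrlig1 embryos, all above the 47.4, 42.8 and 36.8 CPM of the WT embryos (0.53 ± 0.19, adjusted p = 0.157). sox32 (ENSDARG00000100591), with 213, 157 and 147 CPM in MZrlig1 embryos and 198, 196 and 168 CPM in WT embryos, overlapped.

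sox17 came closest to a call at shield. This HMG-box factor (ENSDARG00000101717), a marker of committed endoderm, had 27.5, 15.2 and 14.3 CPM in MZrlig1 replicates a, b and c, against 8.69, 10.5 and 8.03 CPM in WT replicates a, b and c. All MZrlig1 libraries lay above all WT libraries. The log2 fold change was 1.11 ± 0.30 with an adjusted p of 0.0752, and it was 0.72 ± 0.22 (adjusted p = 0.0958) without MZrlig1 replicate a. It was called by DESeq2 (adjusted p = 0.0102), without the filter on low counts and without MZrlig1 replicate c, and the range over 12 alternatives was 0.0102 to 0.647. sox32, which lies next to sox17 with 1 annotated gene between them in the RefSeq annotation of assembly GRCz12tu, had a log2 fold change of −0.09 ± 0.18 at this stage (adjusted p = 0.835). The FPKM of sox17 was 0.0851 ± 0.0146 of that of sox32 in MZrlig1 embryos and 0.0382 ± 0.0038 in WT embryos (SD, n = 3 each). This ratio was higher in every MZrlig1 library, and its two-sided exact permutation p was 0.1, the smallest that 3 against 3 libraries allow (0.167 adjusted over 10 ratio comparisons). It was not particular to this pair. The same p was reached by tbx6 over tbx16 and noto over tbxta at shield and at bud, and by gata6 over gata5 at bud.

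For tbx6, msgn1 and mixl1 the size of the difference at shield depended on MZrlig1 replicate a. tbx6 had 20.7, 2.66 and 4.62 CPM in MZrlig1 replicates a, b and c, against 0.965, 2.12 and 2.25 CPM in WT replicates a, b and c. All MZrlig1 libraries lay above all WT libraries. The log2 fold change of tbx6 was 2.43 ± 0.74 (adjusted p = 0.110) with all libraries and 1.03 ± 0.42 (adjusted p = 0.192) without MZrlig1 replicate a, and the adjusted p ranged from 0.00477 to 0.409 over 12 alternatives. msgn1 (ENSDARG00000070546, mesogenin 1, a factor of presomitic mesoderm) had 173, 104 and 87.6 CPM in MZrlig1 embryos, against 80.0, 73.3 and 79.8 CPM in WT embryos. These did not overlap either. Its log2 fold change was 0.69 ± 0.25 with all libraries (adjusted p = 0.163) and 0.32 ± 0.15 without replicate a (adjusted p = 0.259). mixl1 was low in the same library, at 31.6 CPM in replicate a and 141 and 112 CPM in replicates b and c of MZrlig1, against 114, 134 and 130 CPM in WT embryos. Its log2 fold change was −0.38 ± 0.45 with replicate a and 0.03 ± 0.16 without it.

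MZrlig1 replicate a was also the shield library at the latest developmental position. It stood at 0.729 between the WT means of sphere (0) and bud (1), and the other 2 MZrlig1 libraries at 0.565 and 0.524, against 0.522, 0.547 and 0.566 in WT embryos. Of the 8 factors called from shield to bud in WT embryos, replicate a was beyond both other MZrlig1 libraries in the direction of that step for 6 (tbx6, msgn1, sox17, tbxta, tbx16 and mixl1). For sox32 and gata6, which fell to bud, it was the highest MZrlig1 library, away from the bud levels. The matching share over all genes called in that step is not given here, so the 6 of 8 cannot be set against it. The genes described here and the listed marker and pathway genes were left out of the position. The markers of the enveloping layer summed to 11627 to 14914 CPM over the MZrlig1 shield libraries, against 9950 to 10726 CPM in WT embryos, with all 10 markers present in each. The ectoderm and neural markers summed to 1443 to 1562 CPM in MZrlig1 embryos, against 1592 to 1678 CPM in WT embryos, with 12 or 13 of 13 present. The part of these differences in the results at shield was not tested beyond leaving out replicate a.

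**Figure D4:**
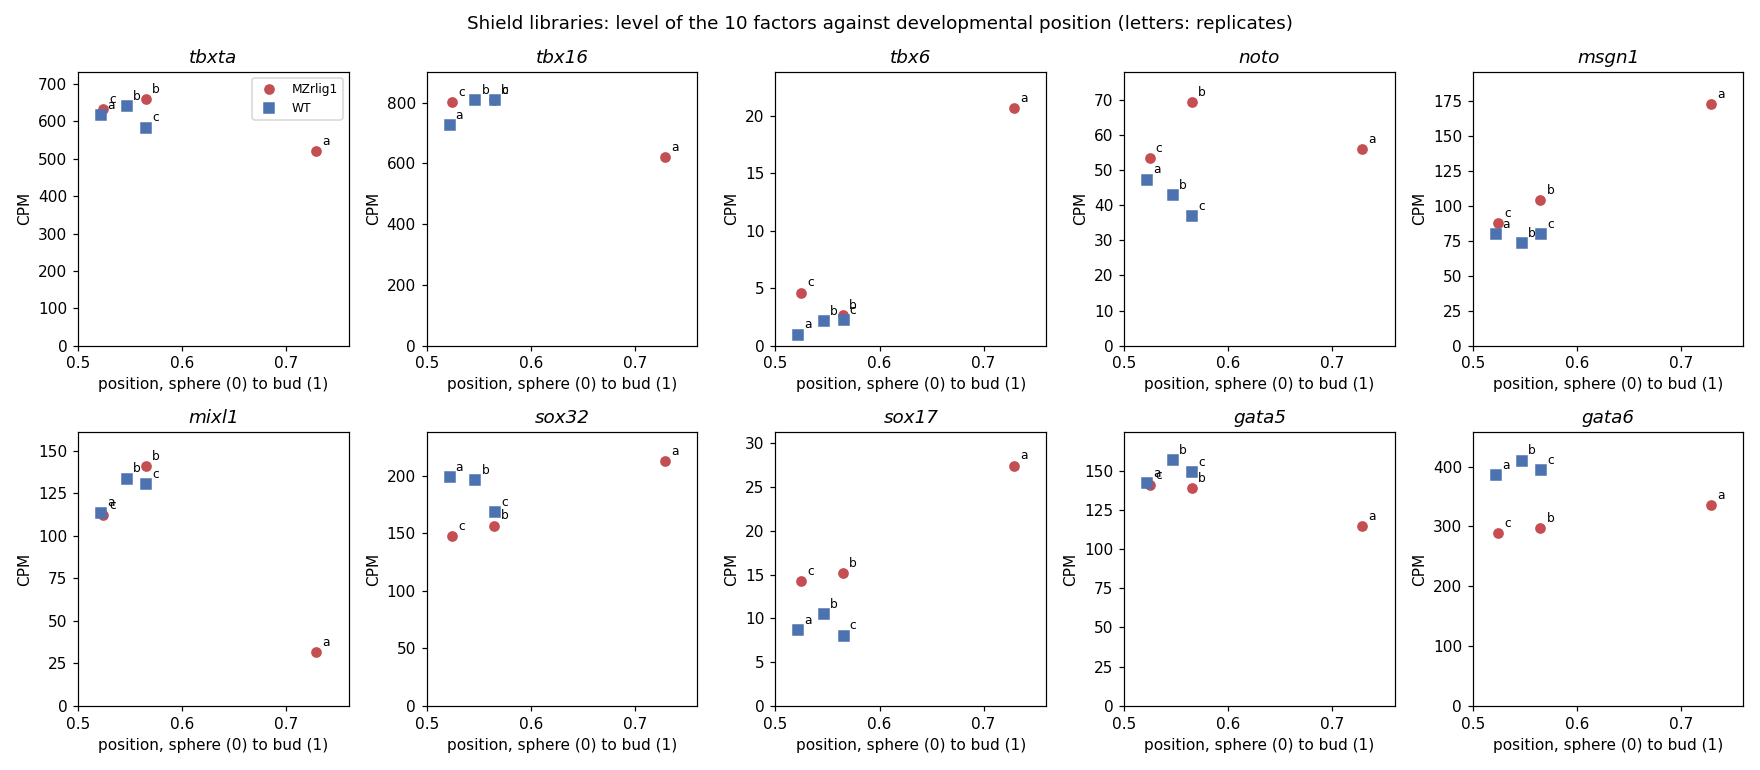
CPM of each of the 10 factors in the 6 shield libraries against their developmental position, MZrlig1 as red circles and WT as blue squares, with replicate letters. MZrlig1 replicate a, at position 0.729, has the highest tbx6, msgn1, sox17 and sox32 and the lowest mixl1, tbxta, tbx16 and gata5, and the other 5 libraries lie between 0.522 and 0.566.

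From shield to bud the factors separated. In MZrlig1 embryos 2 of 10 were called higher and 5 lower at bud, where 27.8% and 25.4% of all tested genes were. Without shield replicate a these counts were 3 and 6 (30.2% and 27.0%). In WT embryos 3 were called higher and 5 lower, against 30.3% and 25.6% of all genes. tbx6 rose most, by 4.82 ± 0.70 on the log2 scale in MZrlig1 embryos (adjusted p = 0.000779) and by 6.77 ± 0.42 in WT embryos (adjusted p = 2.42e-05), and msgn1 rose by 1.35 ± 0.25 in MZrlig1 and 2.04 ± 0.24 in WT embryos (adjusted p = 0.00196 and 0.000344). mixl1 fell most, with log2 fold changes of −4.91 ± 0.52 in MZrlig1 and −5.81 ± 0.18 in WT embryos (adjusted p = 9.35e-05 and 7.01e-06). tbxta, tbx16, sox32 and gata6 also fell in both genotypes. The call of gata6 was lost in the fit of 35 libraries (adjusted p = 0.250 in MZrlig1 and 0.372 in WT embryos) and without WT bud replicate c (0.0502).

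sox17 rose from shield to bud in WT embryos (1.70 ± 0.20, adjusted p = 0.000316), while its step in MZrlig1 embryos was 0.33 ± 0.28 (adjusted p = 0.349) with all libraries and 0.71 ± 0.18 (adjusted p = 0.0107) without shield replicate a. The difference between these steps was −1.33 ± 0.36 on the log2 scale and was not called (adjusted p = 0.129, and 0.0199 to 0.283 over 16 alternatives). noto had steps of −0.43 ± 0.18 in MZrlig1 and 0.52 ± 0.20 in WT embryos, neither of them called by edgeR with all libraries. DESeq2 called the MZrlig1 step of noto, and edgeR called its WT step without WT bud replicate a (adjusted p = 0.0324). The difference between the steps of noto, −0.92 ± 0.28, was not called by edgeR (adjusted p = 0.196). None of the 10 factors was called in this interaction by edgeR, against 0.440% of all genes, while 3 had an unadjusted p under 0.05 (tbx6, noto and sox17) and DESeq2 called sox17. Again the share of all genes at that unadjusted p is not given. DESeq2 called more of all genes than edgeR here too, and its count is given with the dependence on processing, without a share. Without MZrlig1 shield replicate a the difference for tbx6 was −0.54 ± 0.47, against −1.92 ± 0.85 with it.

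At bud no factor was called between the genotypes (0 of 10 by edgeR and by DESeq2, against 0.814% of all tested genes by edgeR), and mixl1 and sox32 had an unadjusted p under 0.05. For that unadjusted p the share of all genes is not given here. tbxta had 143, 146 and 151 CPM in MZrlig1 replicates a, b and c and 146, 151 and 152 CPM in WT replicates a, b and c. tbx16 had 180, 150 and 188 CPM in MZrlig1 embryos and 185, 147 and 178 CPM in WT embryos. msgn1 had 356, 385 and 346 CPM in MZrlig1 embryos and 279, 404 and 279 CPM in WT embryos. These 3 and also gata5 and sox17 overlapped between the genotypes, with log2 fold changes of −0.13 ± 0.13 for tbxta, −0.08 ± 0.12 for tbx16 and 0.05 ± 0.24 for msgn1.

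Libraries of the 2 genotypes did not overlap at bud for 5 factors, none of which passed the test. How many of all genes did not overlap at bud is not given here, so the 5 cannot be set against that share. tbx6 had 305, 288 and 333 CPM in MZrlig1 embryos, against 285, 110 and 228 CPM in WT embryos (0.51 ± 0.26, adjusted p = 0.503), with WT replicate b far below the rest. In WT replicate b ribosomal protein genes took 8.10% of the counts, against 4.56% to 5.67% in the other bud libraries. It had 20253 genes detected, against 20877 to 21794. mixl1 had 3.54, 3.81 and 3.66 CPM in MZrlig1 embryos, against 2.45, 1.81 and 2.7 CPM in WT embryos (0.57 ± 0.24, adjusted p = 0.389). For these 2 the MZrlig1 libraries lay above the WT libraries, and for the other 3 they lay below. sox32 had 23.9, 28.1 and 22.0 CPM in MZrlig1 embryos, against 29.9, 48.4 and 34.4 CPM in WT embryos (−0.74 ± 0.28, adjusted p = 0.340). noto had 48.0, 53.6 and 53.8 CPM in MZrlig1 embryos, against 55.1, 69.5 and 60.7 CPM in WT embryos (−0.37 ± 0.18, adjusted p = 0.483). gata6 had 205, 234 and 187 CPM in MZrlig1 embryos, against 247, 271 and 242 CPM in WT embryos (−0.39 ± 0.17, adjusted p = 0.429). With each library left out in turn, the log2 fold change ranged from 0.24 to 0.74 for tbx6 and from 0.48 to 0.66 for mixl1. It ranged from −0.93 to −0.41 for sox32, −0.50 to −0.19 for noto and −0.52 to −0.25 for gata6. At this stage same-lettered libraries of the genotypes deviated together, and blocking on that letter 264 genes were called in place of 129, still with no factor among them. The MZrlig1 bud libraries were at a later position between the WT means of shield and 1 dpf, 0.415 to 0.450 against 0.349 to 0.400 in WT embryos. Their enveloping layer markers summed to 20751 to 23570 CPM, against 17136 to 18131 CPM in WT embryos, and their yolk syncytial layer markers to 3371 to 3650 CPM, against 2780 to 3337 CPM, all markers being present. The part of these in the values of the 5 factors was not tested.

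**Figure D5:**
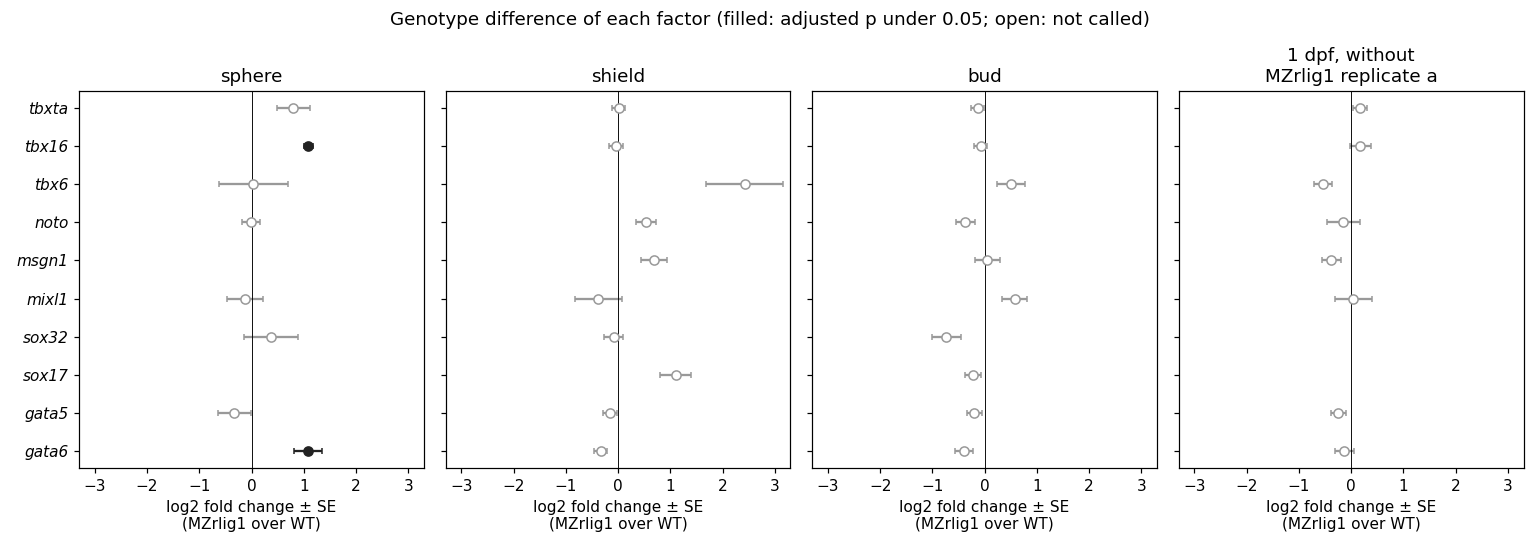
Log2 fold change of MZrlig1 over WT for each factor at sphere, shield, bud and 1 dpf (the last without MZrlig1 replicate a), with SE as bars, filled where called and open where not. Only tbx16 (1.09) and gata6 (1.08) at sphere are filled, and tbx6 at shield has the widest bar.

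After bud the factors fell. In WT embryos all 10 were lower at 1 dpf than at bud, where 26.6% of all tested genes were called lower. The call of mixl1 in WT embryos (adjusted p = 0.0288) was lost without any 1 of the 3 WT 1 dpf libraries, without WT bud replicate c, with the block and in the fit of 35 libraries, with an adjusted p up to 0.106. In MZrlig1 embryos 5 of 10 were called lower with all libraries (0.366% of all genes; each of the 5 calls was lost without any 1 of the other 5 libraries, with an adjusted p of up to 0.403) and 10 of 10 without 1 dpf replicate a (31.6%). sox32 had 0, 1 and 0 counts at 1 dpf in MZrlig1 replicates a, b and c and 2, 1 and 0 counts in WT replicates a, b and c. sox17 had at most 4 counts in the MZrlig1 and 10 counts in the WT libraries. tbxta kept 42.5 and 48.8 CPM in MZrlig1 replicates b and c, against 3.46 CPM in replicate a, and 38.5, 43.2 and 41.3 CPM in WT embryos. Between MZrlig1 and WT embryos at 1 dpf, 0 of 8 tested factors were called, with 0% of all genes called by edgeR and 1.03% called without replicate a. These 8 were all factors but sox32 and sox17. 123 of all genes and 0 of the 8 factors had an unadjusted p under 0.05, and DESeq2 called 7 genes and 0 factors. The median log2 fold change over all genes at this stage was −0.41 with replicate a and −0.00091 without it, so changes here are relative to that shift. tbx6, at 0, 40.0 and 33.6 CPM in MZrlig1 replicates a, b and c, was below the 44.9, 48.9 and 68.4 CPM of the WT embryos, with a log2 fold change of −0.53 ± 0.17 (adjusted p = 0.278) without replicate a. gata5, at 7.47, 20.0 and 19.8 CPM in MZrlig1 embryos and 24.4, 21.6 and 25.5 CPM in WT embryos, also did not overlap (−0.24 ± 0.15, adjusted p = 0.795, without replicate a). The share of all genes without overlap at 1 dpf is not given here.

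By 5 dpf gata5 and gata6 were the most abundant of the 10 factors, followed by tbxta. gata5 had 24.8, 24.3 and 20.9 CPM in MZrlig1 replicates a, b and c and 22.9, 29.0 and 18.2 CPM in WT replicates a, b and c. gata6 had 21.3, 16.1 and 22.2 CPM in MZrlig1 larvae and 24.5, 23.9 and 20.0 CPM in WT larvae. Both overlapped between the genotypes. From 1 dpf to 5 dpf neither was called in WT larvae (−0.05 ± 0.16 for gata5 and 0.09 ± 0.16 for gata6, adjusted p = 0.808 and 0.614), while the other 6 of 8 tested factors, tbxta, tbx16, tbx6, noto, msgn1 and mixl1, were lower, against 36.3% of all genes. In MZrlig1 larvae 1 of 7 was called lower with all libraries (1.34% of all genes; msgn1, whose call was lost without any 1 of the other 5 libraries, with an adjusted p of up to 0.173), and 6 of 8 without 1 dpf replicate a (32.3%). No factor was called between the genotypes at 5 dpf (0 of 4 by edgeR, by DESeq2 and at an unadjusted p under 0.05, against 1.02% of all genes by edgeR). Besides gata5 and gata6 these were tbxta and tbx6, with log2 fold changes of 0.21 and −0.10 (adjusted p = 0.757 and 0.925 by edgeR).

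In the heads at 5 dpf, gata5 averaged 11.1 to 12.9 CPM and gata6 8.99 to 13.9 CPM over the 4 groups of genotype and response. tbx6 averaged 3.07 to 5.50 CPM, and the other 7 factors 1.23 CPM or less. These levels are given as a description, without a test.

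Over the stages, 43 tests compared a factor between MZrlig1 and WT embryos, and 2 were called. Both were at sphere, where 36% of all tested genes were called, against 0% to 3.84% at the other stages. In the other 17 of the 60 pairs of factor and stage the factor was too low to be tested. Among the pairs of factors, log2 CPM over the 35 libraries without MZrlig1 1 dpf replicate a were most alike for gata6 and gata5 (Pearson r 0.965), gata5 and tbxta (0.964), gata6 and tbxta (0.962) and noto and tbx16 (0.958), and least alike for mixl1 and tbx6 (−0.111). These libraries share their stages, so the coefficients mainly describe the stage course. Of 17487 named genes with at least 5 CPM in a group, the 2 most like tbxta were CYP27C1 (0.990) and igsf3l (0.988), and those most like tbx16 were bmp7a (0.989), a BMP ligand gene, and asb11 (0.982). DDX18 (0.984) and vox (0.980), a homeobox repressor gene of the ventral side, were most like noto, and her1 (0.971), a gene of the segmentation clock, and SLC39A5 (0.965) most like msgn1. nudt4b (0.964) and PSMC6 (0.947) were most like tbx6. The chemokine receptor gene CXCR4 (ENSDARG00000041959, 0.958) and RNF19A (0.958) were most like mixl1. For sox32 they were the gene ENSDARG00000096215 (0.983) and STARD3NL (0.976), and for sox17 slc22a5 (0.964) and rbp7a (0.963). For gata5 they were OSR1 (0.986) and SP5 (0.983), and for gata6 LCP1 (0.979) and zgc:153018 (0.974).

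Genes known to act upstream of the factors were compared from a list of Nodal ligands, receptors and maternal regulators, with 19 identifiers. At the 4-cell stage 1 of its 15 tested genes was called higher and none lower in MZrlig1 embryos, where 3.16% of all tested genes were called. This was gdf3, the maternal TGF-beta ligand that pairs with Nodal, at 737 ± 95.6 CPM in MZrlig1 embryos and 398 ± 26.9 CPM in WT embryos (SD, n = 4 each), a log2 fold change of 0.91 ± 0.14 (adjusted p = 0.00409). At sphere 4 of 18 were called higher and 6 lower, where 36% of all tested genes were called and 18.8% were called higher. gdf3 was again higher, at 646 ± 35.9 CPM in MZrlig1 and 322 ± 2.04 CPM in WT embryos (SD, n = 2 each; 1.19 ± 0.07, adjusted p = 4.75e-07). Of the 2 genes named ACVR1B, activin receptors, ENSDARG00000018968 was higher (0.54 ± 0.07) and ENSDARG00000052142 lower (−0.78 ± 0.12), and ACVR2B (ENSDARG00000044422) was lower (−1.48 ± 0.18). The median over the list at sphere was −0.34, against −0.02 over all tested genes. At shield, bud and 1 dpf 0 of 18, 15 and 15 tested genes of the list were called by edgeR, against 3.84%, 0.814% and 0% of all tested genes. Without MZrlig1 replicate a 2 of 18 were higher at shield, and the share of all tested genes called in that fit is not given here. At 5 dpf 1 of 13 was called, where 1.02% of all tested genes were. This was gdf3, at 5.69 ± 0.588 CPM in MZrlig1 larvae and 0.405 ± 0.122 CPM in WT larvae (SD, n = 3 each). Its log2 fold change was 3.87 ± 0.32 (adjusted p = 0.000927).

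Further genes of the same tissues are set against the share of all tested genes called between the genotypes, which was 3.16% at the 4-cell stage, 36% at sphere and 3.84%, 0.814%, 0% and 1.02% at the later stages. Of the endoderm list, 3 of 12 tested genes were called higher and 1 lower at sphere, and 0 of 7, 13, 16, 16 and 16 at the other stages. At shield without MZrlig1 replicate a, 1 of 13 was lower, and the share of all genes in that fit is not given here. At sphere vgll4l, which acts in endoderm formation, averaged 365 ± 1.63 CPM in MZrlig1 and 272 ± 6.40 CPM in WT embryos (SD, n = 2 each; log2 fold change 0.61 ± 0.07). Of the 2 genes named CXCR4, ENSDARG00000041959 was higher (0.46 ± 0.09) and ENSDARG00000057633 lower (−0.63 ± 0.13). Of the axial mesoderm and notochord list, 3 of 9 were higher and 1 lower at sphere, and 0 of 4, 17, 19 and 19 were called at the 4-cell stage, bud, 1 dpf and 5 dpf. At sphere LAMB1 (ENSDARG00000101209), a laminin gene, averaged 6.87 ± 0.09 CPM in MZrlig1 and 0.821 ± 0.262 CPM in WT embryos, COL9A1 (ENSDARG00000073699), a collagen gene, 3.69 ± 1.26 CPM in MZrlig1 and 0.129 ± 0.087 CPM in WT embryos, and admp, a BMP-like ligand gene of the organizer, 11.2 ± 2.04 CPM in MZrlig1 and 19.4 ± 1.62 CPM in WT embryos (SD, n = 2 each). At shield 1 of 16 was called, chrd, the BMP antagonist of the organizer, at 430 ± 49.5 CPM in MZrlig1 and 255 ± 41.1 CPM in WT embryos (SD, n = 3 each; 0.79 ± 0.16, adjusted p = 0.0273). Of the paraxial mesoderm and tailbud list, 1 of 11 was higher and 2 lower at sphere, where aplnrb, the apelin receptor gene, was higher (1.34 ± 0.25) and tbx16l (−2.23 ± 0.62), the T-box gene related to tbx16, and dlc (−2.35 ± 0.63) were lower. At shield 1 of 24 was called, ripply1, higher at 34.3 ± 5.78 CPM in MZrlig1 and 18.1 ± 1.65 CPM in WT embryos (0.96 ± 0.21). At bud 1 of 28 was called, the caudal-type gene cdx1a, lower at 123 ± 5.65 CPM in MZrlig1 and 423 ± 51.4 CPM in WT embryos (−1.88 ± 0.11, adjusted p = 0.00459). cdx1a was also the 1 of 23 called at 5 dpf (−2.11 ± 0.23, adjusted p = 0.00359), and 0 of 6 and 27 were called at the 4-cell stage and 1 dpf. At 1 dpf without MZrlig1 replicate a, 1 of 28 was lower, where 1.03% of all tested genes were called.

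Of the heart field and lateral plate list, 1 of 4 was higher at the 4-cell stage and 2 of 8 at sphere, and 0 of 10, 11, 18 and 18 were called at the later stages. The gene at both early stages was lhx1a, at 2.34 ± 1.14 CPM in MZrlig1 and 0.113 ± 0.154 CPM in WT embryos at the 4-cell stage (SD, n = 4 each), and at 6.34 ± 2.32 and 0.655 ± 0.117 CPM in MZrlig1 and WT embryos at sphere (n = 2 each). The other was GATA2 (ENSDARG00000059327), a factor of ventral mesoderm and blood, at 128 ± 7.50 CPM in MZrlig1 and 64.7 ± 8.03 CPM in WT embryos (1.17 ± 0.11). At sphere the median log2 fold change was 0.22 over the tested endoderm genes, 0.06 over the axial, 0.14 over the paraxial and 0.25 over the heart field genes, and 0.21 over the 8 tested factors, against −0.02 over all tested genes.

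From sphere to shield 22 of 26 tested paraxial mesoderm and tailbud genes were called higher in MZrlig1 and 21 of 25 in WT embryos, 13 of 16 and 12 of 14 axial mesoderm and notochord genes, and 10 of 13 and 10 of 12 endoderm genes, where 31.8% and 39.1% of all tested genes were called higher in MZrlig1 and WT embryos. In each of these lists 1 gene was lower in either genotype. The upstream regulators divided, with 7 of 18 higher and 5 lower in MZrlig1 embryos, and 7 of 18 higher and 9 lower in WT embryos, where 27.6% and 40.4% of all genes were lower in MZrlig1 and WT embryos. From shield to bud 12 of 18 upstream regulators were lower and 1 higher in MZrlig1 embryos, and 11 lower and 1 higher in WT embryos. Over the same step to bud, 10 of 17 axial genes were higher and 4 lower in MZrlig1 embryos, and 11 higher and 2 lower in WT embryos. Of 27 paraxial genes, 13 were higher and 9 lower in MZrlig1 embryos, and 16 higher and 8 lower in WT embryos. Of all tested genes, 27.8% were higher and 25.4% lower in MZrlig1 embryos, and 30.3% higher and 25.6% lower in WT embryos.

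The listed gene with the largest called log2 fold change in each step and list is given here by its mean CPM (± SD over the libraries of the stage), since most were at or near 0 at one of the stages. In MZrlig1 embryos, the genes from the 4-cell stage to sphere were mxtx2 (78.0 ± 20.7 at sphere, 0.187 ± 0.157 at the 4-cell stage), FOXA2 (4.10 ± 1.75 and 0), admp (11.2 ± 2.04 and 0.160 ± 0.319), GATA2 (128 ± 7.50 and 0.863 ± 1.07) and WNT8A, ENSDARG00000052910 (0 and 8.14 ± 5.44). In WT embryos they were mxtx1 (17.8 ± 1.13 and 0), vgll4l (272 ± 6.40 and 0.0979 ± 0.196), admp (19.4 ± 1.62 and 0), aplnrb (404 ± 83.1 and 0.0326 ± 0.0653) and GATA2 (64.7 ± 8.03 and 0.434 ± 0.228). WNT8A was the one gene of these that fell.

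From sphere to shield they were in MZrlig1 embryos ACVR2B, ENSDARG00000103108 (36.7 ± 13.7 at shield, 7.34 ± 2.14 at sphere), PROX1 (1.24 ± 0.248 and 0), SHH, ENSDARG00000068567 (7.23 ± 3.83 and 0), cdx1a (19.4 ± 19.6 and 0) and TBX5 (0.803 ± 0.447 and 0). In WT embryos they were EOMES, ENSDARG00000006640 (12.1 ± 1.35 and 181 ± 7.26), nkx2.7 (1.20 ± 0.306 and 0), TBXT, ENSDARG00000039806 (16.4 ± 2.53 and 0), fgf24 (19.2 ± 1.40 and 0) and lhx1a (89.4 ± 5.99 and 0.655 ± 0.117). EOMES, a T-box gene, was the one that fell. From shield to bud they were in MZrlig1 embryos EOMES (0.431 ± 0.350 at bud, 21.6 ± 21.8 at shield), FOXA1 (9.04 ± 0.170 and 0.116 ± 0.200), MNX1 (7.89 ± 1.22 and 0.193 ± 0.185), MEOX1 (96.9 ± 6.41 and 0.557 ± 0.523) and PAX2 (83.5 ± 13.8 and 0.275 ± 0.253). In WT embryos they were mxtx2 (0.444 ± 0.0637 and 10.8 ± 1.87), FOXA1 (7.75 ± 1.86 and 0.111 ± 0.0490), MNX1 (7.59 ± 1.47 and 0.0470 ± 0.0814), hoxb1b (277 ± 45 and 1.22 ± 0.771) and HAND2 (14.0 ± 3.08 and 0.260 ± 0.215). The upstream regulators EOMES and mxtx2 fell in this step and the other named genes rose.

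From bud to 1 dpf they were in MZrlig1 embryos, with replicate a included, admp (0.0941 ± 0.0816 at 1 dpf, 22.1 ± 0.515 at bud), cdx1a (0.238 ± 0.254 and 123 ± 5.65) and MEF2C, ENSDARG00000029764 (210 ± 78.6 and 1.39 ± 0.510), and no gene of the other 2 lists was called. In WT embryos they were ndr2 (0.0922 ± 0.0330 and 5.37 ± 1.37), the Nodal ligand cyclops, admp (0.132 ± 0.175 and 27.2 ± 2.61), EVX1 (8.07 ± 1.14 and 0) and FOXF1 (3.32 ± 0.700 and 0). From 1 dpf to 5 dpf no listed gene was called in MZrlig1 larvae with replicate a included. In WT larvae nanog (0.0713 ± 0.00581 at 5 dpf, 1.30 ± 0.0726 at 1 dpf), nkx2.7 (1.09 ± 0.451 and 8.99 ± 1.03) and mespab (0.0471 ± 0.0412 and 2.89 ± 0.772) were lower, and COL9A1, ENSDARG00000073699 (95.8 ± 23.7 and 2.1 ± 0.433), and lhx1a (56.0 ± 3.85 and 9.41 ± 1.27) were higher.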

How the data were processed

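Poly(A)-enriched libraries were made from TRIzol-extracted pools, per the labels' protocols. The authors deposited raw counts per gene and FPKM, and the submitters' processing notes name STAR 2.7.10b, Salmon 0.14.1, DESeq2 1.42.1 and build GRCz11 without their roles. The counting method and the use of strand are not given in the sources used here, so reads of overlapping, antisense or near-identical genes could be shared. FPKM, as the authors deposited them, were used only to compare levels between genes.

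Each comparison was fitted alone to the deposited counts with edgeR 4.0.16 in R 4.3.3 (TMM, filterByExpr, robust quasi-likelihood, Benjamini-Hochberg over all tested genes). SE is the absolute log2 fold change over the square root of F. The step interactions compared the genotypes over 2 stages in 1 fit. The fitting code was tested on counts simulated for shield and bud groups only, with the same spread for every gene. The design of sphere, with 2 libraries per genotype, was not simulated. Rows with no value in any library were left out. Ratios of FPKM were compared by exact permutation tests.

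For the developmental position, the 500 genes that rose and the 500 that fell most between the WT means of the neighbouring stages were averaged as log2 CPM (prior count 2) and subtracted, and the result was scaled so that the earlier stage is 0 and the later one 1. Ribosomal protein genes are those named rpl or rps with a digit.

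Not every tested factor is named in each comparison, so a factor left unnamed may still have been tested. From each gene list, the 2 called genes with the smallest p in each direction were named per genotype comparison, and the called gene with the largest log2 fold change per stage step. The result for 1 such gene is not reported here. For each factor the 2 genes of highest Pearson r of log2 CPM were named among those with a group mean of at least 5 CPM. The members and lists were chosen with earlier results of these data known. List names absent from the tables were matched without a final a or b, which paralogs share.

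Replicates are separate pools, per the series' design text. Same-lettered libraries of the genotypes deviated together at bud only (correlation of deviations 0.324 to 0.468 over 3 letters, from the data). The count of called genes with the letter as a block is therefore given there. The log2 fold changes, SE and adjusted p of the factors at bud are from the fit without the block. Depth was 12313473 to 18355308 counts per whole-embryo library and 12158453 to 16137782 per head library. Alternatives were DESeq2 1.42.0, its size factors within edgeR, no filter on low counts, all libraries in 1 fit, the replicate letter as a block, 200 genes for the position, and leaving out each library in turn.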

Additional observations from a re-analysis of the deposited data

Results flagged for a closer look

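At the 4-cell stage, 9 of 20 groups of 4 libraries had 1 library far from the other 3. The rule's rate of about 1 in 20 is for normally distributed values and does not hold for counts near 0. For noto, sox32 and sox17 in MZrlig1 and tbxta, tbx16 and sox32 in WT embryos the other 3 libraries were at 0. In such a group any count in 1 library is flagged. The groups are 10 genes in the same 8 libraries and so are not independent, and 2 of the values rest on 1 or 2 counts (sox32 in WT replicate f and noto in MZrlig1 replicate d). In 6 groups this was MZrlig1 replicate d: tbxta at 6.51 CPM, noto at 0.128, sox32 at 0.958, sox17 at 0.319, gata5 at 1.98 and gata6 at 6.71 CPM, each against at most 0.273 CPM in the other MZrlig1 libraries. In 3 groups it was WT replicate f, with tbxta at 0.392 CPM, tbx16 at 0.783 CPM and sox32 at 0.0653 CPM, against 0 in the other WT libraries.

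The step from sphere to shield differed between MZrlig1 and WT embryos by −1.11 on the log2 scale for tbx16 and by −1.40 for gata6, both past the threshold of the interaction test.

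For tbx6 and gata6 every MZrlig1 library lay on one side of the WT libraries at one stage and on the other side at another in contrasts that were not tested. The mean CPM of tbx6 in MZrlig1 over that in WT embryos was 5.23 at shield, 1.49 at bud and 0.454 at 1 dpf, the last with MZrlig1 replicate a at 0 counts. At shield MZrlig1 replicate a had 20.7 CPM of tbx6, against 2.66 and 4.62 CPM in the other MZrlig1 libraries. At bud WT replicate b lay far below the rest. The same ratio for gata6 was 1.87 at sphere and 0.825 at bud. noto also lay above WT at shield and below it at bud, and there the test of the difference between the steps had an adjusted p of 0.196.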

How the results depend on the processing

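The 155 tested values of the 10 factors gave 1738 values under the alternatives, of which 1615 kept direction and call, 74 lost a call, 49 gained one and none reversed a called value. The sign differed in 50 values that were called in neither fit. The counts of called genes over all genes were less stable, with 119 of 204 within 1.5 times. The causes were not tested.

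With all 36 libraries in 1 fit the genotype counts were 91 at sphere, 204 at shield, 395 at 1 dpf and 25 at 5 dpf, in place of 5433, 573, 0 and 209. With all but MZrlig1 1 dpf replicate a they were 1423 at the 4-cell stage (409 alone), 979 at sphere, 1532 at shield, 513 at bud (129 alone), 102 at 1 dpf and 92 at 5 dpf, and the MZrlig1 steps to 1 dpf and to 5 dpf had 11773 and 12575 (243 and 1796 alone). DESeq2 gave 900 at the 4-cell stage, 1234 at shield, 633 at bud, 7 at 1 dpf, 383 at 5 dpf, 2999 and 6579 for those MZrlig1 steps, 1320 for the interaction of sphere to shield (415 by edgeR) and 538 for that of shield to bud (76 by edgeR). Without the filter on low counts the MZrlig1 step to 1 dpf had 60. Blocking on the replicate letter (replicate block) gave 270 at the 4-cell stage, 345 at shield, 264 at bud, 36 at 5 dpf, 0 for both late MZrlig1 steps and 49 for the interaction of shield to bud. At bud, where the letters paired the libraries, the block changed no call of a factor. No paired analysis was possible for sphere because its groups share fewer than 2 letters with each other and with the neighbouring stages. Elsewhere the libraries share only a letter.

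Leaving out each library in turn gave genotype counts of 202 to 992 at the 4-cell stage, 3036 to 6631 at sphere, 85 to 790 at shield, 0 to 492 at bud, 0 to 194 at 1 dpf and 49 to 375 at 5 dpf. In WT embryos the steps had 5479 to 10227 called genes to sphere, 11390 to 12726 to shield, 6823 to 10787 to bud, 9333 to 13095 to 1 dpf and 14708 to 15840 to 5 dpf. In MZrlig1 embryos they had 3852 to 6859, 6076 to 9378, 6659 to 9698, 0 to 13146 and 0 to 14426 in the same order. The interactions had 47 to 1485 and 7 to 201. The difference in developmental position, MZrlig1 minus WT, stayed within 0.0788 to 0.0927 at sphere, −0.00012 to 0.102 at shield, 0.0483 to 0.0735 at bud and −0.0020 to 0.0083 at 1 dpf.

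At 1 dpf the median over all genes, in log2 fold change, was −0.41 with MZrlig1 replicate a and near 0 (−0.00091) without it, and for the MZrlig1 step to 5 dpf it was 0.44, or 0.76 with DESeq2 size factors. Counts of 0 to 3 per library, as for sox32 at 1 dpf, cannot show differences at this depth.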
